A study of Macaca fascicularis with 15 samples.

Results

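The extracellular matrix genes described here are the collagens, laminins, integrins, matrix proteases, protease inhibitors, fibulins and fibrillin of the eye of the cynomolgus monkey (Macaca fascicularis). They were chosen by name alone: the entries whose names start as a collagen chain, a laminin chain, an integrin subunit, an ADAMTS, an MMP, a TIMP, a fibulin or a fibrillin, with COL1A1, COL1A2, COL2A1, COL3A1, COL6A2, COL9A1 and TIMP3 left out. This gave 78 of 12995 genes, among them 17 collagen chains, 9 laminin chains, 15 integrin subunits, 14 ADAMTS proteases, 2 ADAMTS-like proteins, 12 matrix metalloproteinases, 2 inhibitors, 3 fibulins and 1 fibrillin. The remaining 3 entered through their names only: COL4A3BP is a lipid transfer protein, ITGB1BP2 is a muscle protein that binds an integrin tail, and ITGB3BP is a nuclear and centromere protein.

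RNA sequencing tables were analysed for 4 samples of central retina (replicates 1 to 4), 3 of peripheral retina (1 to 3), 2 of whole retina and 2 of whole eye. The central retina holds the macula, and the central tables carry that name in their headers. All animals were wild type with no treatment named, every sample was made from a single eye, and the tissue had been kept in RNALater, a solution that preserves RNA. The labels call the eye and retina samples biological replicates but tie no sample to an animal, and they give no date or batch. The p-values therefore speak only to the spread among these samples, part or all of which may be technical. Another 4 records, 2 of each whole tissue, were not analysed here.

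Cells rest on basement membranes, thin sheets woven from type IV collagen and laminin, and they hold on to them through integrins, receptors built from an alpha and a beta subunit. In the eye such sheets line the inner surface of the retina, the pigment epithelium, the blood vessels, the lens and the cornea. Fibrillin and the fibulins build the elastic fibres and microfibrils of Bruch's membrane under the pigment epithelium and of the zonule that carries the lens. Matrix metalloproteinases and ADAMTS enzymes cut matrix proteins, and TIMPs block the metalloproteinases.

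Values are the authors' normalized signal per gene, with no unit stated, and absolute depth is unknown. The sum of all values was 299480 to 335644 in the 7 regional libraries and 356677 to 375035 in the 4 whole-tissue libraries. Listed at 0 were 313 to 501 genes in the regional libraries and 171 to 226 in the whole-tissue libraries. Since no length scaling is stated, levels are compared within a gene and never between genes. Rod markers summed to 10451 to 18522 in central, 17017 to 25454 in peripheral and 13783 to 14709 in whole retina, and to 11165 to 12454 in whole eye, so all 4 tissues carried the markers of neural retina. Ganglion cell markers summed to 1972 to 3807 in central retina and 357 to 651 in peripheral retina. The whole-retina libraries also carried markers of tissue outside the neural retina, given below beside the levels.

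Some gene names are the start of another listed name. In such genes, values seem to be exchanged between names in some libraries of these tables. This touches 31 of the 78 members: every ADAMTS and ADAMTS-like name (with ADA), the fibulins (with FBL), COL4A3 and COL4A3BP, ITGA1, ITGA10 and ITGA11, ITGB1 and ITGB1BP2, and MMP2, MMP21, MMP23B, MMP24 and MMP28. Whether it happened in any of them was not tested. They are called shared-name genes below.

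A gene was tested where its mean reached 1 in at least 1 of the 4 tissues. That held for 66 members, of which 45 had a mean of at least 1 in a region of the retina and 21 only in a whole tissue. The 12 members that were not tested were COL24A1, ITGA10, ITGB6, MMP3 and 8 ADAMTS proteases (ADAMTS3, ADAMTS4, ADAMTS6, ADAMTS7, ADAMTS12, ADAMTS14, ADAMTS16 and ADAMTS19), none above 1.25 in any library. ITGB6, an epithelial integrin subunit, stood at 0.15 and 0.13 in whole eye and at 0.01 or less in the other 9 libraries. MMP3, a broad matrix protease, was listed at 0 in 3 of 4 central and all 3 peripheral libraries and at no more than 0.10 anywhere.

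The series compares regions of the retina, and central against peripheral retina is the comparison with most libraries. In central retina 11 of the 66 tested members were higher and 11 were lower than in peripheral retina. The largest difference upward was in the membrane-bound protease MMP15, at 4.61-fold, and the largest downward in the elastic fibre protein FBLN1, whose central mean was 0.195 against 8.87. Both directions held 16.7% of the tested members, against 12.5% of all 11933 tested genes higher and 8.76% lower. In either direction 33.3% of the members passed, against 21.3% of all genes. The median difference over the members was −0.03 on the log2(value + 1) scale, beside −0.01 over all genes. The libraries of the 2 regions did not overlap for 21 of the 22 genes that passed and for 8 of the 44 that did not. Passing itself favours a gap between the groups, so these overlap counts are a description. The matching share over all genes was not counted. A gene passed where its limma adjusted p, from a fit to all 11 libraries, was under 0.05.

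Counts depended on single libraries. The higher count was 7 without central replicate 3, 5 without central replicate 4, and 6, 4 and 5 without peripheral replicates 1, 2 and 3. The lower count was 6 without peripheral replicate 2 and 7 without peripheral replicate 3. With any 1 library left out, COL4A3, LAMA4, MMP15 and MMP24 still passed as higher, and COL10A1, FBLN1, FBLN5, FBN1, ITGA6 and ITGB8 as lower. Without the shared-name genes 6 members were higher and 7 lower.

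**Figure D1:**
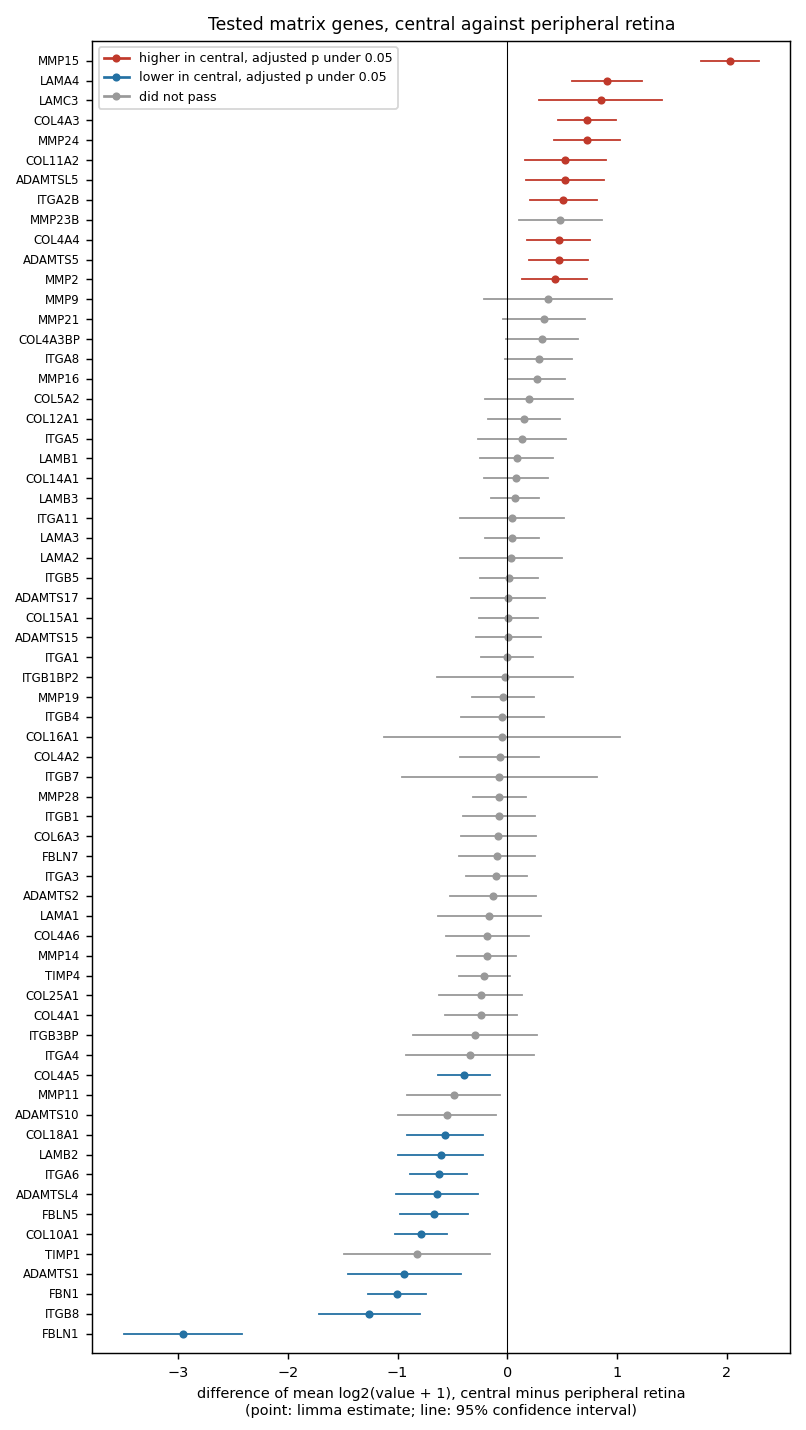
Difference of central minus peripheral retina for 65 of the 66 tested members, sorted by size, on the log2(value + 1) scale, with 95% confidence intervals from the limma fit. Red marks the 11 members higher and blue the 11 lower in central retina, and grey those that did not pass, with MMP15 at 2.03 and FBLN1 at −2.96 at the ends.

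Markers of several cell types differed between the same 2 regions. Of the pigment epithelium list, 4 of 5 tested genes were lower in central retina. The list summed to 242 to 347 there, against 665 to 967 in peripheral retina. RPE65 was the gene that did not pass, and its groups overlapped (central mean 5.645, peripheral mean 6.89, limma adjusted p = 0.185). RLBP1 was the largest part of the sum in every regional library (central mean 200, peripheral mean 444). It is also on the Müller glia list. All 5 pigment cell genes were lower, with sums of 12.8 to 29.5 in central retina and 58.3 to 77.8 in peripheral retina. Of the 6 tested genes of fibrous stroma 3 were lower, with sums of 14.6 to 17.8 in central retina and 19.1 to 32.6 in peripheral retina. Müller glia markers were lower for 6 of 7 genes, with sums of 1598 to 1811 in central retina and 2857 to 3465 in peripheral retina, and 2 of 3 astrocyte genes were lower. Of 7 vascular genes 1 was lower, and the sums overlapped, at 55.0 to 74.9 in central retina and 61.3 to 94.7 in peripheral retina. Ganglion cell markers were higher for 6 of 7 genes. What part these differences have in the results below was not tested, and in bulk tissue fewer cells of a type cannot be told apart from less RNA per cell.

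Among the basement membrane collagens, COL4A3 and COL4A4 were higher and COL4A5 and COL18A1 lower in central retina, while COL4A1, COL4A2, COL4A6 and COL15A1 did not pass. In either direction that is 50.0% of 8 genes, against 21.3% of all genes. COL4A3, COL4A4 and COL4A5 encode the chains of the network that is defective in Alport syndrome. COL4A3, a shared-name gene, was listed at 13.74, 16.48, 17.19 and 14.55 in central and at 8.25, 8.70 and 9.85 in peripheral retina. All 4 central libraries lay above all 3 peripheral ones, with means of 15.5 ± 1.61 and 8.93 ± 0.825 (SD, n = 4 and 3; difference 0.73, SE 0.12, limma adjusted p = 0.00159). Its neighbour in name, COL4A3BP, did not pass (9.00 ± 0.997 and 7.08 ± 1.28, limma adjusted p = 0.153). COL4A4 was listed at 2.25, 3.26, 2.29 and 2.56 in central and at 1.93, 1.41 and 1.43 in peripheral retina. Again every central library was above every peripheral one, by a difference of 0.47 (SE 0.13, limma adjusted p = 0.0272).

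COL4A5 went the other way, at 1.74, 1.80, 1.59 and 1.39 in central and 2.28, 2.71 and 2.40 in peripheral retina. The central libraries were all lower, by 0.40 (difference −0.40, SE 0.11, limma adjusted p = 0.0244). COL18A1, whose C-terminal fragment is endostatin and which is mutated in a syndrome of vitreoretinal degeneration, was listed at 6.28, 6.42, 7.10 and 6.51 in central retina. In peripheral retina it was listed at 7.52, 11.38 and 12.33. The groups did not overlap, but peripheral replicate 1 lay near the central values (difference −0.57, SE 0.16, limma adjusted p = 0.027). COL4A1 and COL4A2, the chains found in nearly every basement membrane, averaged 1.01 ± 0.245 and 4.17 ± 0.763 in central retina and 1.37 ± 0.318 and 4.39 ± 0.444 in peripheral retina. Neither passed (limma adjusted p = 0.269 and 0.800), and the 95% intervals of the difference were −0.57 to 0.08 for COL4A1 and −0.43 to 0.29 for COL4A2. The calls on COL4A4, COL4A5 and COL18A1 were each lost without peripheral replicate 2, at limma adjusted p of 0.117, 0.116 and 0.117, and also without peripheral replicate 3 or central replicate 4. COL4A5 was lost without central replicate 3 and with quantile normalization (limma adjusted p = 0.0522) as well, and COL18A1 without central replicate 1.

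**Figure D2:**
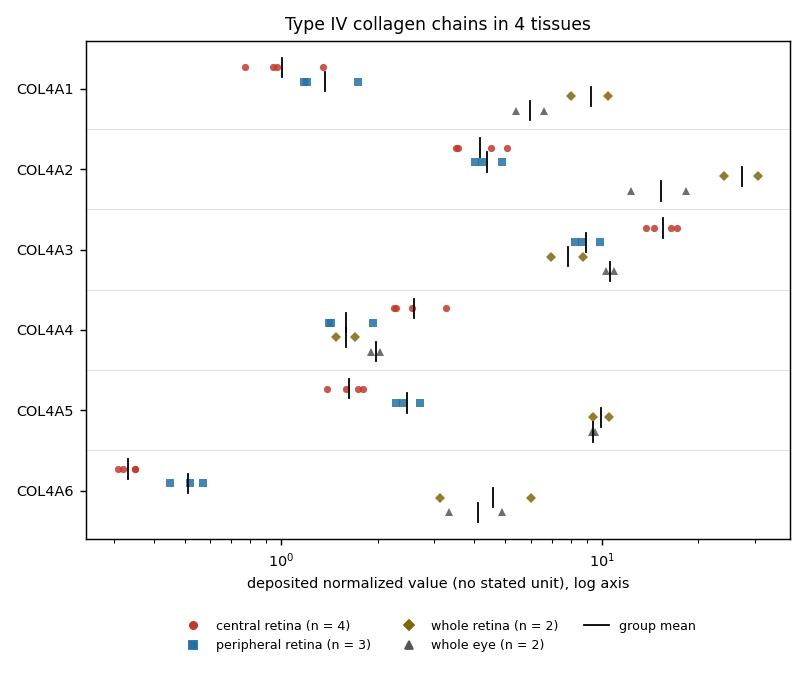
Listed values of the type IV collagen genes in each library of central, peripheral and whole retina and whole eye, on a log axis, with ticks at the group means. COL4A3 and COL4A4 are higher in central than in peripheral retina, while COL4A1, COL4A2, COL4A5 and COL4A6 are lower in all 7 regional libraries than in the 4 whole-tissue libraries.

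Of the other collagens, COL11A2 was higher and COL10A1 lower in central retina. COL11A2, a chain of a fibrillar collagen of cartilage and vitreous, was listed at 1.44, 1.67, 0.70 and 1.45 in central and at 0.63, 0.65 and 0.47 in peripheral retina. Central retina was the sole tissue where its mean reached 1, so the filter fixed the direction a call could take. Central replicate 3 lay just above the peripheral libraries (difference 0.53, SE 0.17, limma adjusted p = 0.0473). This call was lost without any 1 of 6 libraries, all but central replicate 3, at limma adjusted p up to 0.127 without peripheral replicate 3, and at 0.0533 with a pseudocount of 0.1. COL10A1, a network-forming collagen known from growing cartilage, was listed at 0.11, 0.10, 0.21 and 0.13 in central and at 0.79, 0.98 and 1.13 in peripheral retina. The groups were far apart, with means of 0.138 ± 0.0499 and 0.967 ± 0.170 (difference −0.79, SE 0.11, limma adjusted p = 0.000566). Both means were below 1, so COL10A1 reached the filter only through the whole tissues, with means of 1.545 in whole retina and 1.265 in whole eye. COL25A1, a membrane-spanning collagen of neurons, averaged 3.77 ± 0.963 in central retina and 4.56 ± 0.271 in peripheral retina and did not pass (limma adjusted p = 0.341). COL5A2, COL6A3, COL12A1 and COL14A1 overlapped between the regions, with differences between −0.08 and 0.20. COL16A1, a fibril-associated collagen, overlapped over a wide range, at 3.35 to 17.31 in central retina and 4.00 to 17.03 in peripheral retina.

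Of the laminin chains, LAMA4 and LAMC3 were higher in central retina, LAMB2 was lower, and the other 6 did not pass. In either direction that is 33.3% of 9 genes, against 21.3% of all genes. LAMA4, a chain of vascular basement membranes, was listed at 2.37, 3.51, 2.98 and 3.40 in central and at 1.33, 1.15 and 1.00 in peripheral retina. The central libraries were all higher, 2.64-fold by their means (difference 0.91, SE 0.15, limma adjusted p = 0.00142). LAMC3, a gamma chain of the retinal matrix, was listed at 2.63, 2.39, 3.32 and 5.25 in central and at 1.52, 1.11 and 1.49 in peripheral retina. Here too the groups did not overlap, and central replicate 4 was the highest (difference 0.85, SE 0.25, limma adjusted p = 0.0359). LAMB2, a beta chain of the retina's inner limiting membrane and of synapses, was listed at 7.95, 6.36, 4.89 and 5.18 in central and at 9.25, 10.97 and 8.91 in peripheral retina. Its central libraries were all lower, by 0.61 (difference −0.61, SE 0.18, limma adjusted p = 0.0324).

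LAMC3 and LAMB2 lost their calls without central replicate 3 or 4 or any peripheral library, at limma adjusted p up to 0.131 and 0.134, both without peripheral replicate 2. LAMC3 also missed the threshold with no filter on low values (limma adjusted p = 0.056). LAMA1, the alpha chain of embryonic and inner limiting membranes, overlapped between 0.64 to 1.73 in central retina and 0.87 to 1.81 in peripheral retina (limma adjusted p = 0.619). LAMB1, a widespread beta chain, averaged 3.09 ± 0.602 in central retina and 2.86 ± 0.591 in peripheral retina (limma adjusted p = 0.729). LAMA2 also overlapped between the regions, and LAMA3 and LAMB3 were below 1 in every regional library.

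**Figure D3:**
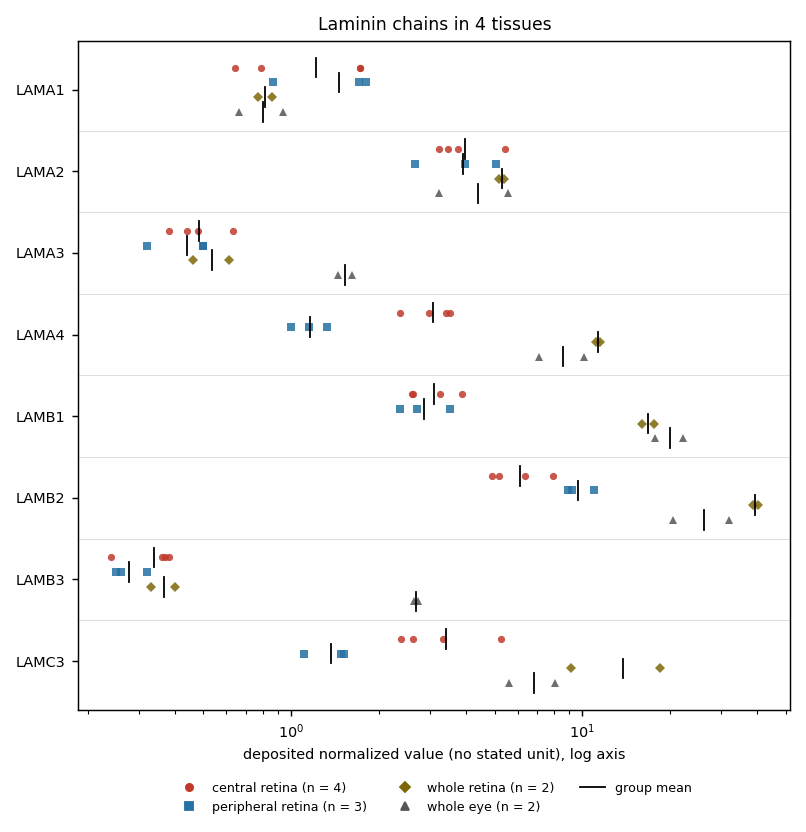
Listed values of 8 laminin genes in each library of central, peripheral and whole retina and whole eye, on a log axis, with ticks at the group means. LAMA4 and LAMC3 are higher and LAMB2 lower in central than in peripheral retina, and LAMA3 and LAMB3 are lower in the 2 whole retinas than in the 2 whole eyes.

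Of 13 tested integrin subunits 1 was higher and 2 were lower in central retina, or 23.1% in either direction, near the 21.3% of all genes. ITGB8, the beta subunit that pairs with the alpha V subunit to activate latent TGF-beta, was listed at 2.30, 4.00, 1.92 and 2.24 in central retina. In peripheral retina it was listed at 10.44, 6.62 and 5.92. The lowest peripheral library was above the highest central one, and the peripheral mean was 2.93 times the central mean (difference −1.26, SE 0.21, limma adjusted p = 0.00171). Its partner ITGAV, no member of the name rule, was also lower in central retina, at 9.93 ± 1.86 against 16.9 ± 3.31 (difference −0.71, limma adjusted p = 0.0095).

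ITGA6, a laminin receptor subunit, was listed at 1.48, 1.77, 1.38 and 1.38 in central and at 3.40, 2.72 and 2.51 in peripheral retina. The groups did not overlap (difference −0.63, SE 0.12, limma adjusted p = 0.00396). ITGA2B, the alpha subunit of the platelet fibrinogen receptor, was listed at 2.99, 2.76, 3.21 and 4.09 in central and at 1.84, 1.83 and 2.28 in peripheral retina. It was higher in every central library (difference 0.51, SE 0.14, limma adjusted p = 0.0244). That call was lost without central replicate 3 or 4 or peripheral replicate 1 or 2, at limma adjusted p up to 0.0987 without peripheral replicate 2. ITGB1, the beta subunit shared by most matrix-binding integrins and a shared-name gene, was listed at 8.57, 11.51, 7.43 and 9.12 in central and at 10.52, 10.16 and 8.27 in peripheral retina. The values overlapped (95% interval of the difference −0.41 to 0.25, limma adjusted p = 0.752). ITGB5, a vitronectin receptor subunit of the pigment epithelium and other cells, averaged 36.0 ± 5.54 in central retina and 35.3 ± 0.767 in peripheral retina, and ITGA3, a laminin receptor subunit, averaged 3.98 ± 0.476 and 4.34 ± 0.615.

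Of the 10 tested matrix metalloproteinases in the MMP list, MMP15, MMP24 and MMP2 were higher in central retina and none was lower (limma). In either direction that is 30.0%, against 21.3% of all genes. An unadjusted limma p under 0.05 was also reached by 1 lower gene, MMP11 (limma adjusted p = 0.0922). MMP15 is a membrane-type enzyme, held on the cell surface. It was listed at 23.00, 25.28, 27.81 and 27.36 in central and at 6.49, 4.95 and 5.38 in peripheral retina. The lowest central library was more than 3-fold above the highest peripheral one, with means of 25.9 ± 2.20 and 5.61 ± 0.795 (difference 2.03, SE 0.12, limma adjusted p = 8.06e-06). MMP24, a membrane-type enzyme of the nervous system and a shared-name gene, was listed at 8.14, 10.41, 10.60 and 11.66 in central and at 6.27, 5.04 and 5.93 in peripheral retina. All central libraries were higher (difference 0.73, SE 0.14, limma adjusted p = 0.00355).

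MMP2, the gelatinase of most connective tissues, was listed at 12.62, 9.14, 11.21 and 12.31 in central and at 7.35, 8.44 and 8.47 in peripheral retina. The groups came close, at 9.14 and 8.47 (difference 0.43, SE 0.13, limma adjusted p = 0.0423). The call was lost without any 1 of 6 libraries, all but central replicate 2, at limma adjusted p up to 0.147 without peripheral replicate 1, and at 0.064 with quantile normalization. MMP9, the gelatinase of leukocytes, averaged 1.78 ± 0.344 in central retina and 1.16 ± 0.353 in peripheral retina without overlap and did not pass (difference 0.37, limma adjusted p = 0.343). MMP14, a membrane-type collagenase that activates MMP2, averaged 3.32 ± 0.329 in central retina and 3.92 ± 0.195 in peripheral retina (limma adjusted p = 0.293). MMP23B, an atypical membrane-anchored enzyme and shared-name gene, was listed at 1.72, 1.85, 1.09 and 2.30 in central and at 0.94, 0.90 and 0.96 in peripheral retina. It did not overlap and did not pass (limma adjusted p = 0.067), but passed with quantile normalization, with the 2 regions fitted alone and without central replicate 3 (limma adjusted p = 0.0432, 0.0474 and 0.0303).

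Of the ADAMTS family, in which every name is shared, 2 of 8 tested members were higher and 2 lower. In either direction that is 50.0%, against 21.3% of all genes. ADAMTS1, which cuts the proteoglycans aggrecan and versican, was listed at 3.92, 2.70, 2.27 and 3.42 in central and at 8.42, 8.92 and 3.92 in peripheral retina. Central replicate 1 and peripheral replicate 3 held the same value, so the groups touched (difference −0.94, SE 0.23, limma adjusted p = 0.0168). The call was lost without peripheral replicate 1 or 2, at limma adjusted p up to 0.0839. ADAMTS5, another aggrecan-cutting enzyme, was listed at 1.82, 2.48, 2.08 and 1.82 in central and at 1.35, 1.29 and 0.97 in peripheral retina. It was higher in every central library (difference 0.47, SE 0.12, limma adjusted p = 0.0201). ADAMTSL4, a protein of fibrillin microfibrils that is mutated in displaced lenses, was listed at 2.09, 1.78, 1.35 and 1.81 in central and at 3.02, 3.36 and 3.45 in peripheral retina. All central libraries were lower (difference −0.64, SE 0.17, limma adjusted p = 0.022).

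ADAMTSL5 was listed at 3.15, 3.26, 3.54 and 3.53 in central and at 2.23, 1.96 and 1.92 in peripheral retina. All central libraries were higher (difference 0.53, SE 0.16, limma adjusted p = 0.0409). The ADAMTSL5 call was lost without any 1 of the 7 regional libraries, at limma adjusted p up to 0.127, and at 0.0543 with no filter on low values. ADAMTS5 and ADAMTSL4 lost theirs without central replicate 3 or peripheral replicate 2 or 3, at limma adjusted p up to 0.0804 and 0.0785.

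Of the inhibitors, TIMP1 was listed at 4.65, 2.55, 3.86 and 5.34 in central and at 7.21, 7.53 and 8.81 in peripheral retina. The central libraries were all lower, but TIMP1 did not pass (difference −0.82, SE 0.30, limma adjusted p = 0.0773). It passed when the 2 regions were fitted alone (limma adjusted p = 0.0128). TIMP4 stood below 1 in all 7 regional libraries and did not pass (limma adjusted p = 0.185).

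Of the elastic fibre proteins, FBLN1, FBN1 and FBLN5 were lower in central retina, and FBLN7 did not pass. In either direction that is 75.0% of 4 genes, against 21.3% of all genes. FBLN1, a fibulin that binds elastin and basement membranes, was listed at 0.16, 0.24, 0.11 and 0.27 in central and at 5.02, 13.41 and 8.18 in peripheral retina. Every central library was under 0.3 and every peripheral one over 5 (difference −2.96, SE 0.24, limma adjusted p = 5.2e-05). FBN1, fibrillin-1, the main protein of microfibrils and of the zonule, was listed at 0.40, 0.38, 0.26 and 0.28 in central and at 1.42, 2.09 and 1.54 in peripheral retina. The peripheral mean was 5.10 times the central mean (difference −1.01, SE 0.12, limma adjusted p = 0.000239). FBLN5, a fibulin needed for elastic fibre assembly, was listed at 0.75, 0.67, 0.62 and 0.70 in central and at 1.63, 1.5 and 1.94 in peripheral retina. Its groups did not overlap either (difference −0.67, SE 0.14, limma adjusted p = 0.00696).

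The fibulins are shared-name genes, with FBL, a nucleolar RNA-modifying enzyme, as the shorter name. FBL was listed at 33.36 to 43.87 in central retina and 28.89 to 36.07 in peripheral retina, above every FBLN1 value in these regions. The fibrous stroma and pigment epithelium sums given above were also lower in central retina, though RPE65 of the pigment epithelium list did not pass. Of the stroma markers, KERA was listed at 0 in all 4 central libraries and in 2 of 3 peripheral ones.

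**Figure D4:**
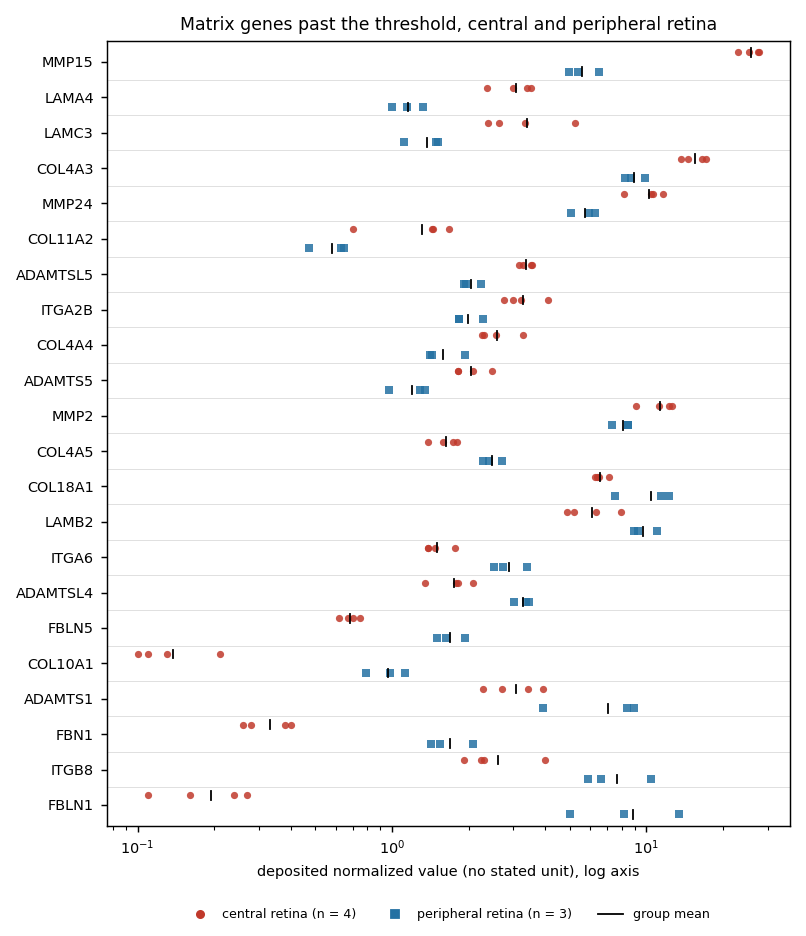
Listed values of the 22 members that passed in central against peripheral retina, in each of the 7 regional libraries, on a log axis, with central (circles) above peripheral retina (squares) in each row and ticks at the group means. The 2 regions do not overlap in 21 of the genes, and ADAMTS1 touches at 3.92.

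Other genes of matrix assembly, adhesion and protease control were counted from a list of 82 genes that are not members, of which 59 were found and 57 tested. In central retina 5 of the 57 were higher (8.77%, against 12.5% of all genes) and 12 lower (21.1%, against 8.76%), with a median difference of −0.03. Of the basement membrane linkers, SPARC, a collagen-binding matricellular protein and a shared-name gene, was lower at 21.1 ± 5.67 in central against 40.0 ± 2.86 in peripheral retina (difference −0.92, limma adjusted p = 0.0068), and the laminin binder NID2 was lower as well, by 0.62. Of the collagen processing genes 1 was higher and 3 lower, among them the collagen chaperone SERPINH1, at 6.25 ± 0.681 in central against 11.9 ± 1.10 in peripheral retina (difference −0.83, limma adjusted p = 0.0029). Of the matrix receptors 3 of 11 were lower, namely ITGAV, the collagen receptor DDR1 and the syndecan SDC2. MFAP2, a microfibril protein that binds fibrillin, was lower at 5.37 ± 1.72 in central against 11.4 ± 0.699 in peripheral retina (difference −1.0, limma adjusted p = 0.0055). It was the only 1 of the 6 tested elastic fibre genes of this list to pass, and their median difference was 0.0015. ELN, the elastin gene, did not pass (limma adjusted p = 0.815).

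Of the protease control genes, 3 of 10 were higher in central retina (beside 12.5% of all genes) and 1, RECK, was lower (beside 8.76%). SPOCK2, a testican proteoglycan of the nervous system, stood at 121 ± 14.8 in central against 38.4 ± 4.61 in peripheral retina, and its relative SPOCK3 at 35.2 ± 6.32 against 17.6 ± 3.11 (differences 1.62 and 0.96). The third was SERPINE2, an inhibitor of serine proteases, whose groups overlapped.

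Whole retina was also compared with whole eye, but the whole-retina libraries already carried markers of tissue outside the neural retina. Fibrous stroma markers summed to 910 to 1122 in whole retina and 952 to 1032 in whole eye. Pigment epithelium markers summed to 2296 to 2446 and 2446 to 2768, while lens and surface epithelium markers were lower in whole retina. A gene that did not pass can therefore not be read as equal in neural retina and the rest of the globe. Of the 66 tested members, 0 were higher in whole retina by limma's adjusted p and 4 were lower, among them LAMB3, MMP28 and LAMA3. That is 6.06% lower, against 2.1% of all genes, and 0.168% of all genes were higher. At an unadjusted limma p under 0.05, 9 of the 66 were higher, beside 4.99% of all genes, and 11 were lower. The share of all genes lower at that unadjusted threshold was not counted. Of the 4 that passed as lower, 3 reached the filter only through whole eye, so their count is a description. LAMA3 and LAMB3 encode laminin chains of the basement membranes under surface epithelia such as that of the cornea. The median over the members was 0.11, against −0.01 over all genes. With 2 libraries in each group, the spread came mostly from the regional libraries.

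LAMB3 was listed at 0.40 and 0.33 in whole retina and at 2.74 and 2.65 in whole eye. The whole eyes were higher in both libraries, with a difference of −1.44 (SE 0.13, limma adjusted p = 4.22e-05). LAMA3 was listed at 0.61 and 0.46 in whole retina and at 1.62 and 1.45 in whole eye (difference −0.72, SE 0.15, limma adjusted p = 0.0218). In neither did the groups overlap, and the whole retinas stood near the regional values of both. LAMB3 and LAMA3 entered the test only through whole eye, the sole tissue where their mean reached 1, so the filter fixed the direction that a call on them could take. MMP28, a protease known from skin and other epithelia and a shared-name gene, was listed at 1.02 and 1.17 in whole retina and at 2.69 and 2.46 in whole eye. It too did not overlap (difference −0.77, SE 0.14, limma adjusted p = 0.0141).

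Of the surface epithelium markers KRT12 and KRT14 were found, and they summed to 0.95 and 28.27 in whole retina against 608.05 and 560.71 in whole eye. Lens markers summed to 307 to 472 in whole retina and 2336 to 2443 in whole eye. The part of either in these results was not tested. Without whole eye replicate 1 only LAMB3 of the 4 passed, with limma adjusted p of 0.0728 for LAMA3 and 0.059 for MMP28, while ITGB1BP2 and COL4A2 passed as higher. Without whole retina replicate 2 the higher count was 6: ITGA1, ITGA4, ITGA5, ITGB7, LAMC3 and MMP9. In that fit COL12A1 and COL14A1, fibril-associated collagens, also passed as lower (limma adjusted p = 0.00948 and 0.00787), and without whole retina replicate 1 COL6A3, a microfibrillar collagen chain, did so (limma adjusted p = 0.0231). In such a fit the lone library is taken to vary like the other groups. The genes that passed only in these fits were named after their values were seen. MMP28 was also lost without whole retina replicate 1 (limma adjusted p = 0.0548). Of the 4, LAMB3 alone passed with a pseudocount of 0.1 or with the 2 groups fitted alone, and LAMB3 and MMP28 passed with quantile normalization.

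Several of those genes differed between the 2 whole retinas. MMP9 was listed at 14.35 in whole retina replicate 1 and 4.93 in replicate 2, against 3.65 and 4.16 in whole eye. ITGB7, a leukocyte integrin subunit, was listed at 5.79 and 0.42 in whole retina and 2.84 and 1.13 in whole eye, and its partner ITGA4 at 3.49 and 0.75 in whole retina and 0.93 and 1.46 in whole eye. TIMP1 was listed at 147.37 and 53.93 in whole retina and 83.13 and 56.34 in whole eye. In all 4 genes replicate 1 was the highest of the 4 whole-tissue libraries. Immune cell markers summed to 1376 in whole retina replicate 1 and 385 in replicate 2, against 379 and 284 in whole eye. The part of the immune markers in these values was not tested.

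The other 62 tested members did not pass in either direction. COL4A1 was listed at 10.5 and 8.02 in whole retina and 6.60 and 5.39 in whole eye, and COL4A2 at 30.83 and 24.15 in whole retina and 18.34 and 12.38 in whole eye. Both were higher in each whole retina and neither passed (limma adjusted p = 0.312 and 0.105). COL5A2, a chain of fibrillar collagen, was listed at 2.62 and 2.32 in whole retina and 5.18 and 4.07 in whole eye, and also did not pass (difference −0.69, limma adjusted p = 0.299). ITGA6 was listed at 9.87 and 9.20 in whole retina and 13.09 and 15.01 in whole eye (difference −0.51, limma adjusted p = 0.196). Of the 57 tested genes of the matrix list that are not members, 0 were higher (0.168% of all genes) and 3, or 5.26% against 2.1% of all genes, were lower in whole retina: the syndecan SDC1 of epithelia, the crosslinking enzyme LOX, a shared-name gene, and the microfibril protein MFAP5. SDC1 averaged 2.62 ± 0.707 in whole retina and 39.1 ± 0.799 in whole eye (SD, n = 2 each). LOX averaged 0.880 ± 0.297 in whole retina and 2.44 ± 0.700 in whole eye, and MFAP5 0.155 ± 0.0778 in whole retina and 1.99 ± 0.389 in whole eye; both reached the filter only through whole eye.

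Levels in the regions were set beside those in whole retina as a description with no test, since the labels do not say that the libraries were prepared together and both regions share the same 2 whole retinas. As deposited, more than 1 in 2 of the tested members were lower in the dissected regions than in whole retina, while quantile normalization left less than that share. Since 21 of the 66 entered through a whole tissue alone, these counts are a description. By at least 2-fold and with no overlap of libraries, 40 members were lower in central retina, or 60.6% against 18.4% of all genes. In peripheral retina 38 were lower, or 57.6% against 17.1%, and 35 were lower in both, or 53.0% against 14.8%. The other way, 3 were higher in central retina, against 7.94% of all genes, and 0 in peripheral retina, against 2.84%. The median ratio over the members was 0.246 in central and 0.353 in peripheral retina, against 0.920 and 0.939 over all genes. In 41 members (62.1%, against 24.7% of all genes) all 7 regional libraries lay below all 4 whole-tissue libraries, and in 0, against 10.2% of all genes, they lay above.

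Quantile normalization moved the all-gene median of the log2 ratio to whole retina to 0.11 in central and 0.15 in peripheral retina, from −0.10 and −0.08 as deposited. It left 32 members lower in central and 29 in peripheral retina, and 11 and 2 higher. Without the shared-name genes 26 and 23 members were lower. The higher count in central retina was 5 without central replicate 3 or whole retina replicate 1. In peripheral retina it was 3 without peripheral replicate 3 and 1 without either whole retina.

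**Figure D5:**
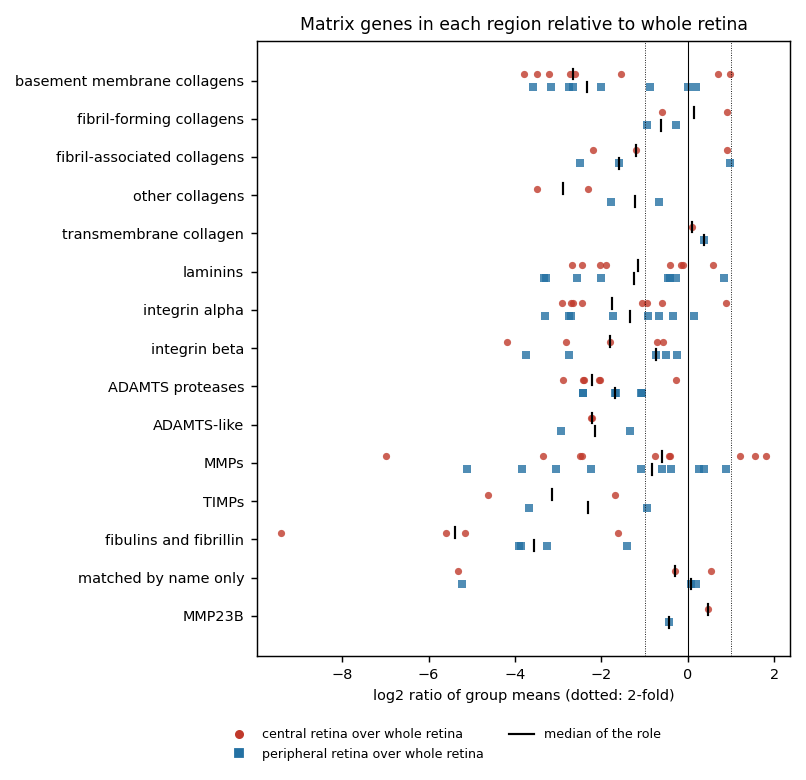
Log2 ratio of the mean in central retina (circles) and in peripheral retina (squares) to the mean in whole retina for 65 of the 66 tested members, by role, with black ticks at the median of the role and dotted lines at 2-fold. Most points lie to the left of the 2-fold line, with fibulins and fibrillin farthest, and MMP15, MMP21 and MMP24 lie to the right of it in central retina.

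All 4 elastic fibre members, both inhibitors and both ADAMTS-like genes were lower in central retina by this measure. FBLN1 was listed at 0.11 to 0.27 in central retina and 5.02 to 13.41 in peripheral retina, against 141.76 and 123.99 in whole retina and 106.46 and 73.46 in whole eye. The order central, peripheral, whole eye, whole retina held for every library. FBN1 ran in the same order of means, with 0.26 to 0.40 in central retina and 1.42 to 2.09 in peripheral retina, against 17.06 and 15.09 in whole retina and 13.14 and 11.85 in whole eye. FBLN5 was listed at 0.62 to 0.75 in central retina and 1.5 to 1.94 in peripheral retina, against 26.24 and 22.65 in whole retina and 25.68 and 17.05 in whole eye. For FBLN5 the 2 whole tissues overlapped. TIMP1 stood at 2.55 to 5.34 in central retina and 7.21 to 8.81 in peripheral retina, each far below the 53.93 and 147.37 of the whole retinas.

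Of the basement membrane collagens, 6 of 8 were lower in central and 5 of 8 in peripheral retina. COL4A1 and COL4A2 were 9.19-fold and 6.60-fold lower in central and 6.74-fold and 6.26-fold lower in peripheral than in whole retina. COL18A1 was 1.84-fold lower in peripheral retina, short of 2-fold. COL4A3 and COL4A4 were lower in neither region. COL4A3 was listed at 13.74 to 17.19 in central retina and 8.25 to 9.85 in peripheral retina, against 8.76 and 6.96 in whole retina and 10.95 and 10.32 in whole eye. Only central retina stood apart there, above all other libraries. COL4A4 was likewise highest in central retina, at 2.25 to 3.26, against 1.41 to 1.93 in peripheral retina, 1.70 and 1.48 in whole retina and 1.91 and 2.04 in whole eye.

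LAMB2, LAMB1, LAMA4 and LAMC3 were lower in both regions, and LAMA1, LAMA2, LAMA3 and LAMB3 were within 2-fold of whole retina. LAMB2 was listed at 4.89 to 7.95 in central retina and 8.91 to 10.97 in peripheral retina, against 40.20 and 38.49 in whole retina and 31.88 and 20.48 in whole eye. LAMA4 averaged 3.06 ± 0.517 in central retina and 1.16 ± 0.165 in peripheral retina, and was listed at 11.18 and 11.50 in whole retina. So central retina, higher than peripheral retina in LAMA4 and LAMC3, was still below whole retina in both.

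ITGB1 was listed at 7.43 to 11.51 in central retina and 8.27 to 10.52 in peripheral retina, against 59.59 and 70.45 in whole retina and 72.15 and 58.55 in whole eye. The 2 regions overlapped each other, as did the 2 whole tissues, with a wide gap between. ITGA8, an integrin subunit of smooth muscle and mesenchyme, was listed at 2.48 to 3.02 in central retina and 1.69 to 2.44 in peripheral retina, against 17.05 and 24.29 in whole retina and 17.95 and 16.67 in whole eye. ITGB8, which has a role in glia, differed from these in that its peripheral libraries, at 5.92 to 10.44, overlapped the 9.53 and 8.56 of whole retina. ITGB4 and ITGB5, receptor subunits of epithelia, were within 2-fold of whole retina in both regions.

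MMP2 was 10.2-fold lower in central and 14.3-fold lower in peripheral retina than in whole retina, where it was listed at 130.80 and 100.94, and MMP14 was 5.60-fold and 4.75-fold lower. MMP19, a secreted protease, stood at 0.06 or less in every regional library and at 1.63 and 0.90 in whole retina. The 3 members higher in central than in whole retina were all metalloproteinases. MMP15 was 3.52-fold higher, with 7.98 and 6.72 in whole retina and 6.93 and 6.22 in whole eye. MMP24 was 2.31-fold higher, with 4.83 and 3.99 in whole retina and 5.24 and 4.55 in whole eye. MMP21, a secreted enzyme needed for left-right asymmetry, was 2.94-fold higher, at 0.85 to 1.73 in central retina against 0.39 and 0.49 in whole retina, and was named after its values were seen. Both whole retina values were below 1, so MMP21 did not reach the filter through whole retina, and its place in this count is a description. MMP15 in peripheral retina, at 4.95 to 6.49, was near the whole tissues.

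The marker sums below, of other cell types and of tissue outside the neural retina, were also lower in both regions than in whole retina. Fibrous stroma markers summed to 14.6 to 17.8 in central retina and 19.1 to 32.6 in peripheral retina, against 910 to 1122 in whole retina and 952 to 1032 in whole eye. Muscle markers, found for 4 of 7 genes, summed to 10.3 to 15.3 in central retina and 10.2 to 11.5 in peripheral retina, against 1201 to 1400 in whole retina and 585 to 1239 in whole eye. ACTA1 of this list went the other way, with means of 2.82 in central and 2.07 in peripheral against 0.555 in whole retina, without overlap. The rest of the muscle genes found, ACTA2, MYH11 and DES, were lower in both regions without overlap. Pigment cell markers were at 493 to 504 in whole retina and 571 to 851 in whole eye, and pigment epithelium markers at 2296 to 2446 in whole retina and 2446 to 2768 in whole eye, both above the regional sums given before. Vascular markers summed to 55.0 to 74.9 in central retina and 61.3 to 94.7 in peripheral retina, against 235 to 285 in whole retina and 213 to 260 in whole eye. KDR, a large part of the regional sums, overlapped whole retina, at 25.55 to 36.84, 36.91 to 55.53, and 35.03 and 39.69 in central, peripheral and whole retina. The other vascular genes were lower in both regions without overlap. Immune cell markers summed to 22.1 to 33.1 in central retina and 35.5 to 52.5 in peripheral retina, against 385 to 1376 in whole retina and 284 to 379 in whole eye. Astrocyte markers summed to 4.74 to 24.2 in central retina and 18.9 to 38.6 in peripheral retina, against 128 to 153 in whole retina and 142 to 189 in whole eye. Lens markers summed to 3.78 or less in every regional library. The part of these cells and tissues in the matrix levels was not tested.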

How the data were processed

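The 11 deposited tables each give 1 normalized signal value per gene for 1 library, per the file headers, and how the authors normalized it is not given in the sources used here. GSNAP and HTSeq are named without version in the submitters' processing notes, and the genome build is not given in the sources used here. Of 13083 entries, 26 marked ND, 1 blank and 61 exact duplicates were dropped. Libraries were grouped by tissue label. limma 3.58.1 in R 4.3.3 was run on log2(value + 1) with 4 groups, all 11 libraries, a variance trend, two-sided tests, Benjamini-Hochberg adjustment over all 11933 genes with a group mean of at least 1, and a threshold of 0.05. A difference on this scale understates the change of low genes. The script was tested on simulated data. Tables and plots used numpy 2.4.6, pandas 2.3.3 and matplotlib 3.10.9.

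The members, gene lists and tests were chosen with earlier results of these data known. Singly named genes are the 8 largest differences per direction and comparison among members that passed without overlap and averaged at least 2 in the higher of both groups, up to 2 per role with the smallest p, and a set of well-known matrix genes, of which COL6A1, LAMC1 and TIMP2 were not analysed here. Members that passed outside this rule, and other members with values, were named after their values were seen. Of the 78 names, 77 match RefSeq symbols of this species. Alternatives were another pseudocount, other filters, quantile normalization, a fit of 2 groups, a replicate block, each library left out, and shared-name genes left out. Those of the levels were added after seeing the data. Same-numbered central and peripheral libraries did not all deviate together. A member that enters the counts is not reported singly here or drawn.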

Additional observations from a re-analysis of the deposited data

Results flagged for a closer look

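Among the 66 tested members, 2 had 1 central retina library far from the other 3, where the gap to the nearest library, divided by the whole range, exceeded Dixon's 95% critical value for 4 samples. Such a gap arises by chance in about 1 of 20 groups. LAMB3 was listed at 0.24 in central replicate 2 and at 0.36 to 0.38 in the others, a gap of 0.857 of the range. ADAMTS10, a shared-name gene, was listed at 1.45 in central replicate 1 and at 0.92 to 0.97 in the others, a gap of 0.906 of the range.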

How the results depend on the processing

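Whether the numbers pair the regions could not be settled from so few libraries. Same-numbered central and peripheral libraries correlated in their deviations at −0.18, −0.12 and 0.43. Central replicate 1 with peripheral replicate 2 gave 0.34, and central replicate 2 with peripheral replicate 1 gave 0.35. The remaining differently numbered pairs were negative. With a replicate block 6 members were higher and 9 lower in central retina, and 0 and 0 differed in whole retina. TIMP1 passed as lower in central retina under the block (limma adjusted p = 0.0181). Among the regional calls lost under the block, beside the losses given above, were ADAMTS5, COL4A4, COL4A5, COL11A2, ITGA2B, LAMB2 and MMP2. COL10A1, with a mean below 1 in both regions, was not tested under the block or with the 2 regions fitted alone. For members higher in central than in peripheral retina, a filter of a mean of at least 5 gave 7, leaving out shared-name genes 6, and leaving out 1 library 4 to 9. The lower count was 7 without shared-name genes and 6 to 11 with 1 library left out. For members higher in whole retina than in whole eye, no filter gave 1 and leaving out 1 library 0 to 6. The lower count there was 1 with a pseudocount of 0.1, 0 with a filter of a mean of at least 5, 2 with quantile normalization, 1 with the 2 groups fitted alone, and 1 to 6 with 1 library left out. Against whole retina, central retina had 26 lower members without shared-name genes (39 to 41 with 1 library left out). Its higher count was 11 with quantile normalization, 0 at 4-fold, 1 without shared-name genes and 3 to 5 with 1 library left out. Peripheral retina had 23 lower without shared-name genes (36 to 41 with 1 library left out) and 2 higher with quantile normalization (0 to 3 with 1 library left out). The cause of these moves was not tested.

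Some differences changed sign between fits. In whole retina against whole eye these included 0.35 for ADAMTSL5 and 0.38 for TIMP1 in the main fit, and the others were nearer 0. In whole retina against whole eye, quantile normalization gave 0.039 for ITGB1, 0.015 for MMP23B and 0.000222 for TIMP4. With 1 library left out, the range in central against peripheral retina was −0.18 to 0.0079 for ITGB1. In whole retina against whole eye it was −0.18 to 0.39 for ADAMTSL4, −0.045 to 0.74 for ADAMTSL5, −0.088 to 0.36 for COL11A2, −0.28 to 0.060 for COL4A3BP, −0.15 to 0.14 for ITGB1, −0.40 to 0.23 for ITGB4, −0.10 to 0.13 for LAMA1, −0.088 to 0.28 for MMP14, −0.13 to 0.24 for MMP2, −0.30 to 0.22 for MMP23B and −0.34 to 1.10 for TIMP1. None of these had passed. Depth is unknown, so no limit from depth can be given for genes listed near 0.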

Other observations

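COL16A1 was listed at 11.98, 17.31, 3.35 and 10.91 in central and at 17.03, 13.34 and 4.00 in peripheral retina, so replicate 3 was the lowest in both regions. It was listed at 5.24 and 6.31 in whole retina and 5.91 and 5.69 in whole eye. LAMA1 was lowest in replicate 3 of both regions as well, at 0.64 in central and 0.87 in peripheral retina, and central replicate 4 stood near it at 0.79. COL11A2 was also lowest in replicate 3 of both regions, at 0.70 in central and 0.47 in peripheral retina. ADAMTS3, which cuts procollagen and is a shared-name gene, was listed at 0.59, 0.02, 0.46 and 0.02 in central, 0.05, 1.17 and 0.79 in peripheral retina, 0.26 and 1.25 in whole retina, and 0.84 and 0.92 in whole eye.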
